A study of Homo sapiens with 4 samples.

Results

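The mitochondrial import machinery was followed as a set of 35 genes among the 20457 gene symbols measured. The set holds the 23 symbols that begin with TIMM or TOMM and a digit, and 12 genes chosen by name: PAM16, DNAJC19, GRPEL1, GRPEL2, HSPA9, SAMM50, CHCHD4, GFER, PMPCA, PMPCB, MTX1 and MTX2. The rule uses symbols and no measured value. HEK293, a human embryonic kidney cell line, wild type in genotype per the labels, was exposed for 72 h to 10 nM siRNA. The siRNA was either a negative control (siControl, 2 libraries) or directed at CNOT4 (siCNOT4, 2 libraries), a ubiquitin ligase of the CCR4-NOT complex, which shortens mRNA poly(A) tails. Poly(A) RNA was sequenced to ask how depleting CNOT4 alters gene expression in relation to codon usage. The labels do not say whether the 2 libraries of a group came from separate cultures, so the p-values measure only the spread between these libraries, which may be technical.

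Nearly all mitochondrial proteins are made in the cytosol and enter the organelle through translocases. The TOM complex is the entry gate of the outer membrane, the SAM complex and the metaxins insert beta-barrel proteins there, and the CHCHD4-GFER relay oxidises cysteine-rich proteins held in the intermembrane space. Small TIM chaperones carry hydrophobic proteins across that space, TIM22 inserts carriers into the inner membrane, and TIM23 with its HSPA9-driven motor moves proteins with a cleavable presequence into the matrix, where the PMPCA-PMPCB peptidase removes it.

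The promoters of 4 genes are shown because the genes are ones on which the differences between the groups turned, or because they hold one of the motifs searched. Each window of 160 bases comes from RefSeq (GRCh38.p14) and is read 5′ to 3′ on the strand of the gene. Capitals mark matches to the NRF1 motif (GCGCANGCG, either strand) in SAMM50, CHCHD4 and TOMM7, and to the ATF4 and CEBP composite motif (TTGCATCA, either strand) in TIMM22. NRF1 is a transcription factor known for nuclear genes of mitochondrial proteins, and ATF4 is the main factor of the integrated stress response. The windows are chr22:43955282-43955441 on the plus strand for SAMM50, chr3:14124871-14125030 on the minus strand for CHCHD4, chr7:22822850-22823009 on the minus strand for TOMM7 and chr17:996969-997128 on the plus strand for TIMM22.
SAMM50: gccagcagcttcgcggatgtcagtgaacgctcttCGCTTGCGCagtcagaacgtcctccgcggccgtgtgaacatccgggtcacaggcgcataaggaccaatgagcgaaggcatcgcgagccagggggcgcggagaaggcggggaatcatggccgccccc
CHCHD4: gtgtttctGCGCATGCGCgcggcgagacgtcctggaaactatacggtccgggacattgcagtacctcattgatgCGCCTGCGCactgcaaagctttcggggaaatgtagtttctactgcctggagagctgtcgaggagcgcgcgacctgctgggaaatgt
TOMM7: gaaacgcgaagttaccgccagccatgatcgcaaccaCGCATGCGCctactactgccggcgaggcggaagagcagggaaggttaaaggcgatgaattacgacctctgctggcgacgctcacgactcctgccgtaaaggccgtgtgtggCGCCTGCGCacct
TIMM22: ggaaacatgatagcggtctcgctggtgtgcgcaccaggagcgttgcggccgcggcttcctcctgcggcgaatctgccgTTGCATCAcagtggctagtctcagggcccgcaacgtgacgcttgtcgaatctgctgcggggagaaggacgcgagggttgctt

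A RefSeq promoter was found for 32 of the 35 genes, and the 250 bases before the start were searched on both strands. The NRF1 motif occurred in 8 of the 32 promoters (25.0%), those of TOMM20, TIMM9, PAM16, TOMM40, TOMM34, SAMM50, CHCHD4 and TOMM7. The same motif occurred in 6.56% of all 35116 promoters and in 10.86% of the 14821 promoters of genes tested. The ETS motif of GABPA (CCGGAAGT) occurred in 6 promoters (18.8%), those of TOMM20, TIMM10B, TIMM10, TOMM70A, GRPEL2 and TOMM6, against 3.42% of all promoters and 5.74% of those of tested genes. TTGCATCA occurred in the promoters of TIMM22 and PMPCB, against 0.77% of all promoters. The YY1 motif (AAGATGGCG) occurred only in TOMM40L among the import genes, and the ZNF143 motif (CTACAATTC) in none, against 0.65% and 0.29% of all promoters. No match to one motif overlapped a match to another, and in CHCHD4 matches to the NRF1 motif on both strands overlap each other. Of the 8 genes with the NRF1 motif, the fold change was below 0 in 7 and above 0 in SAMM50, against 20 of all 35 import genes below 0. Of the 6 genes with the ETS motif, 3 lay below 0 and 3 above. TIMM22 and PMPCB, with TTGCATCA, and TOMM40L, with the YY1 motif, lay above 0. These splits were not tested. A match describes the letters of the promoter and is not evidence of binding in these cells.

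The values are deposited TPM, which scale read counts by gene length so that each library sums to a fixed total. Whole reads could be recovered from the TPM steps, and the libraries held 27.62 and 25.72 (siControl) and 29.01 and 28.72 (siCNOT4) in units of 1e6 reads counted to genes. CNOT4 itself stood at 6.43 and 4.73 TPM in siControl and 3.38 and 3.81 TPM in siCNOT4. Its fitted log2 fold change of -0.51 ± 0.26 (SE, n = 2 per group) did not pass the test over all genes (limma, adjusted p = 0.184), although both siCNOT4 libraries lay below both siControl libraries. It was called lower when libraries were rescaled by trimmed mean of M values (TMM; log2 fold change -0.98; limma, adjusted p = 0.0337) and when trends on length and GC content were removed (-1.38; adjusted p = 0.0127). Of 11 HEK293-associated markers, 9 had a mean of at least 1 TPM, with PAX8 at 0.0381 to 0.243 TPM and NEFM at 0.412 to 0.916 TPM below it. VIM, an intermediate filament gene on that list, fell from 917 and 650 to 369 and 354 TPM (limma, adjusted p = 0.0288). It was the 1 HEK293-associated marker called, where 1.3% of all tested genes were called lower and 11.3% higher. Among the 9 tested, both siCNOT4 libraries lay above both siControl libraries for 4 (LHX1, WT1, KRT18 and PAX2), below for 2 and overlapped for 3. Over all tested genes, they lay above for 66.4% and below for 10.6%. Of 8 markers of other cell types, EPCAM, an epithelial gene, stood at 238 to 262 TPM and COL1A1, a fibroblast gene, rose from 0.906 and 1.39 to 5.09 and 6.60 TPM (limma, adjusted p = 0.0248). HBB was at 0 in every library and the other 5 stayed at or below 0.255 TPM. The part of these marker genes in the results below was not tested.

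Most import genes stood lower in siCNOT4 relative to the median gene. All 35 had a mean of at least 1 TPM and entered the test. SAMM50, the channel that inserts beta-barrel proteins, rose, and TIMM17B, one of a pair of alternative TIM23 channel subunits, fell. The other 33 genes did not pass the adjusted threshold of 0.05 (limma, Benjamini-Hochberg over 14208 genes). An unadjusted p under 0.05 was found for 13 of the 35, a smaller share than the 5974 of all 14208 genes tested. The 1 gene called higher is 2.9% of the set, where 11.3% of all tested genes were called higher. The 1 called lower is also 2.9% of the set, against 1.3% of all tested genes.

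The median log2 fold change was -0.13 over the import genes and 0.50 over all tested genes, a difference of -0.64, and 30 of the 35 genes (85.7%) lay below the all-gene median. The difference was -0.33 without siControl replicate 2, where the all-gene median was 0.29, and -0.22 with quantile normalization. Within libraries, the median import gene stood above the median of all genes by 2.23 and 3.07 in siControl and 2.03 and 2.07 in siCNOT4 (log2). The 2 siControl libraries thus lay further from each other than siControl replicate 1 lay from siCNOT4. Replicate 1 minus replicate 2 of siControl had a median of 0.38 over all tested genes and 0.008 over the import genes. Both siCNOT4 libraries lay below both siControl libraries for 17 import genes (48.6%), against 10.6% of all tested genes. The opposite order held for 14 import genes (40%), against 66.4% of all tested genes, and 4 genes overlapped (GRPEL2, TIMM8B, TOMM22 and TIMM10). Summed over the 35 genes, the 2 siControl levels were 5274.9 and 5454.7 TPM and the 2 siCNOT4 levels 5029.8 and 5057.3 TPM. The ratio of group means was 0.940. The import genes thus took 0.527% and 0.545% of all TPM in siControl and 0.503% and 0.506% in siCNOT4. Under TMM scaling the ratio was 0.621, with sums of 5549.8 and 7748.3 in siControl and 4164.6 and 4087 in siCNOT4. The siControl sums lay far apart on that scale, with replicate 2 the higher. In bulk libraries such as these, fewer cells of one state and less RNA per cell cannot be told apart.

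Because the median gene differed by 0.50 between the groups, the direction of many genes depends on the scale. With TMM scaling, under which the median of all genes was -0.02, no import gene was higher and 6 were lower: TOMM40, TIMM44, TOMM5, TIMM17B, CHCHD4 and TIMM13. Those 6 are 17.1% of the set, against 5.59% of all tested genes called lower and 4.3% called higher. Under that scaling the log2 fold change of SAMM50 was 0.20 (limma, adjusted p = 0.442) and that of TIMM17B was -1.17 (limma, adjusted p = 0.0382). The fold changes of MTX1, MTX2, TIMM17A, TIMM21, TIMM23, TIMM22, TIMM8A, TOMM40L, TOMM70A, GRPEL2 and PMPCA were above 0 on the deposited scale and below 0 under TMM scaling. For every gene below, the deposited TPM scale is used unless another is named, and the value relative to the median of all genes is the fold change minus 0.50.

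**Figure D1:**
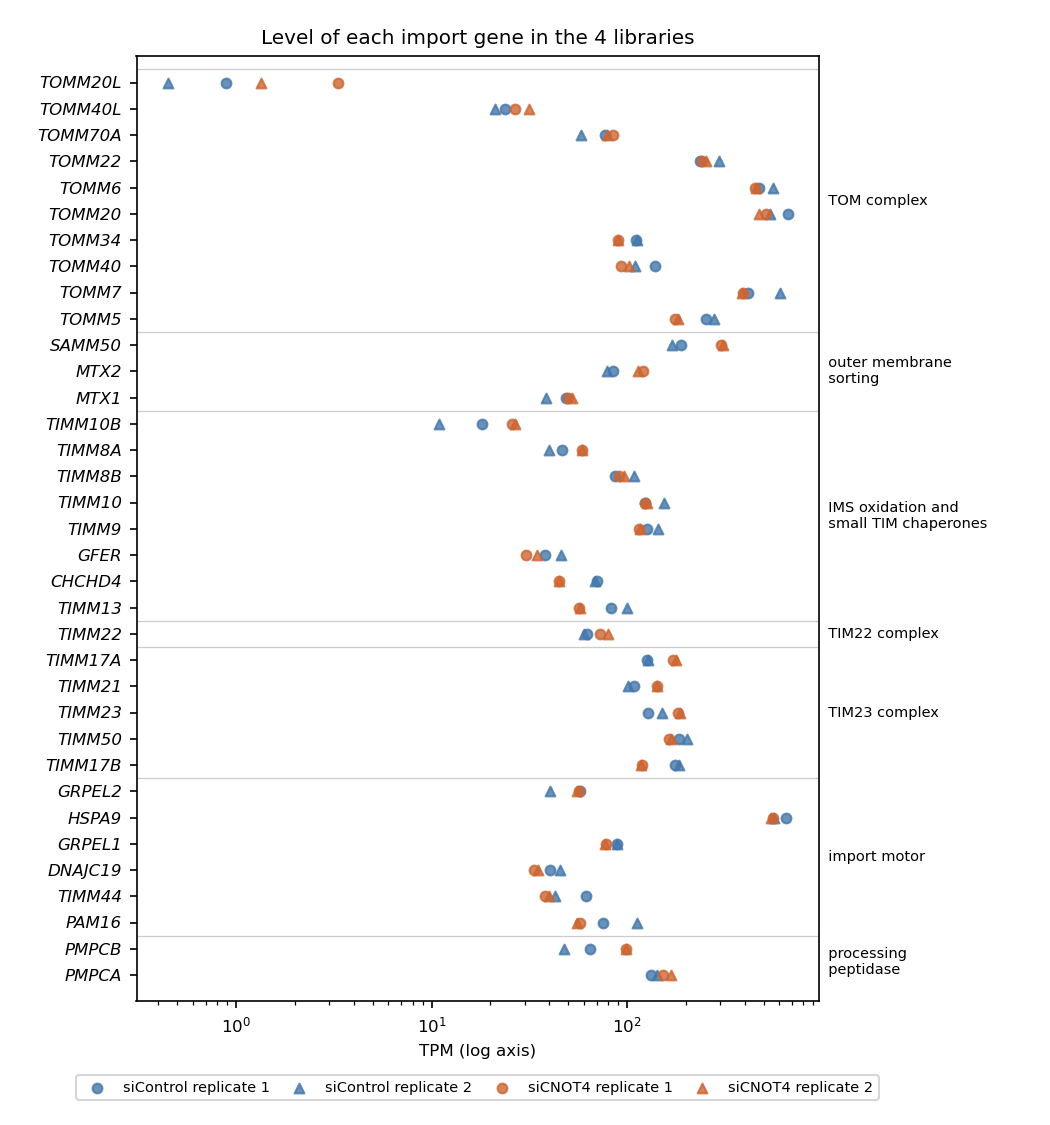
TPM of each of the 35 import genes in each of the 4 libraries on a log axis, grouped by role; blue marks siControl, orange siCNOT4, circles replicate 1 and triangles replicate 2. HSPA9, TOMM20, TOMM6 and TOMM7 stood highest in siControl and TOMM20L lowest, and the 2 siControl points were often further apart than the 2 siCNOT4 points.

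Levels differed widely between the genes. In siControl the mean was 608 ± 56.9 TPM for HSPA9, 602 ± 91.9 for TOMM20, 517 ± 58.0 for TOMM6 and 512 ± 135 for TOMM7 (SD, n = 2), and these neighbours did not differ beyond their spread. TOMM22 (266 ± 40.7) and TOMM5 (266 ± 18.1) followed, again without a difference beyond their spread. At the other end stood GRPEL2 (49.0 ± 12.0), MTX1 (43.6 ± 7.42), TIMM8A (43.2 ± 4.52), DNAJC19 (42.9 ± 3.74), GFER (41.9 ± 5.71), TOMM40L (22.5 ± 1.76), TIMM10B (14.5 ± 5.02) and TOMM20L (0.666 ± 0.311). TOMM20L, a TOMM20-like gene, rested on 7 and 4 reads in siControl and 25 and 10 in siCNOT4, while every other import gene had at least 396 reads in each library.

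In the TOM group, 10 genes were measured and none passed the test. The group holds the TOM complex, its paralogues TOMM20L and TOMM40L, and the cytosolic TOMM34. Of these, 6 (TOMM34 among them) had both siCNOT4 libraries below both siControl libraries. Another 3, with TOMM20L and TOMM40L among them, had them above and 1 overlapped. Over all tested genes, 10.6% lay below and 66.4% above. The median log2 fold change was -0.23. TOMM5, a small subunit of the pore complex (GRCh38, chr9:37582646-37592642), stood at 253 and 278 TPM in siControl and 177 and 183 TPM in siCNOT4. Both siCNOT4 values lay well below both siControl values, with a log2 fold change of -0.56 ± 0.14 (SE; adjusted p = 0.0515 with limma). TOMM7, a small subunit that modulates assembly (chr7:22812628-22822852), stood at 417 and 607 TPM in siControl and 394 and 390 TPM in siCNOT4. Its siControl libraries were far apart and the lower of them lay close to siCNOT4, so the log2 fold change of -0.36 ± 0.20 (SE) did not pass (limma, adjusted p = 0.202).

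On the deposited scale, the pore and its receptors did not share 1 direction. TOMM40, the channel itself, stood at 139 and 109 TPM in siControl and 93.6 and 103 in siCNOT4, and TOMM20, the presequence receptor, at 667 and 537 against 515 and 475. TOMM22, the central receptor, overlapped between groups (238 and 295 against 243 and 254 TPM). TOMM70A, the receptor for carrier precursors, was numerically higher, at 77.1 and 58.0 TPM in siControl and 84.6 and 79.4 in siCNOT4. Under TMM scaling, however, TOMM40, TOMM20, TOMM22 and TOMM70A all had log2 fold changes below 0 (-0.90, -0.85, -0.67 and -0.28). The same held with length and GC trends removed, which also gave all libraries the same mean (-0.54, -0.94, -0.38 and -0.42). TOMM6, a small subunit, was at 476 and 558 against 452 and 459 TPM, and TOMM34, a cytosolic co-chaperone of import, at 112 and 113 against 90.4 and 90.0. TOMM40L, a TOMM40 paralogue, was at 23.7 and 21.2 against 26.9 and 31.6 TPM, and TOMM20L at 0.886 and 0.446 against 3.32 and 1.34. All 10 TOM genes had adjusted p-values between 0.0515 and 0.665 (limma).

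Outer membrane sorting held the 1 import gene that rose. SAMM50 (chr22:43955421-44010531) stood at 189 and 169 TPM in siControl and 303 and 311 TPM in siCNOT4, on 4296, 4372, 6567 and 6669 reads. The siCNOT4 libraries were close to each other and far above both siControl libraries. The log2 fold change was 0.78 ± 0.14 (SE, n = 2 per group; adjusted p = 0.0321 with limma), a ratio of means of 1.72. It exceeded that of 69.5% of all tested genes and lay 0.28 above their median, so a difference of this size was common in these libraries. The call was lost when either siCNOT4 library was left out and kept when either siControl library was left out. A group of 1 library has no spread of its own, so keeping the call is no support. The log2 fold change was 0.70 to 0.86 in these 4 fits. The metaxins MTX2 (85.1 and 79.0 against 120 and 114 TPM; limma, adjusted p = 0.0724) and MTX1 (48.8 and 38.3 against 49.8 and 52.1 TPM; adjusted p = 0.410), partners of SAMM50, also had both siCNOT4 libraries above both siControl libraries, as did 66.4% of all tested genes, without passing.

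Of the 8 genes of intermembrane space oxidation and the small TIM chaperones, none passed. CHCHD4, the import receptor and oxidoreductase also called MIA40 (chr3:14112077-14124870), stood at 69.9 and 68.6 TPM in siControl and 44.7 and 45.0 TPM in siCNOT4. The libraries of each group lay within 1.33 TPM of each other and the groups did not overlap. The log2 fold change was -0.62 ± 0.18 (SE; adjusted p = 0.0621 with limma). GFER, the oxidase that recharges CHCHD4, stood at 37.9 and 46.0 TPM in siControl and 30.3 and 34.9 TPM in siCNOT4 (limma, adjusted p = 0.247).

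TIMM13, a small chaperone that pairs with TIMM8A (chr19:2425624-2427894), stood at 82.5 and 100.1 TPM in siControl and 56.8 and 57.6 TPM in siCNOT4. The siCNOT4 values were nearly equal and below both siControl values, with a log2 fold change of -0.66 ± 0.18 (SE; adjusted p = 0.0599 with limma). TIMM8A, its partner, went the other way, at 46.4 and 40.1 TPM in siControl and 58.8 and 58.7 in siCNOT4 (limma, adjusted p = 0.132). TIMM10B, a small chaperone bound to TIM22, stood at 18.1 and 11 TPM in siControl and 25.8 and 26.8 in siCNOT4 (limma, adjusted p = 0.0909). TIMM9 and TIMM10, which form the main carrier chaperone, and TIMM8B had ratios of group means of 0.855, 0.902 and 0.961. TIMM22, the carrier insertion channel, stood at 62.7 and 60.1 TPM in siControl and 72.5 and 79.6 in siCNOT4, and did not pass (limma, adjusted p = 0.215).

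The 5 genes of the TIM23 complex split. TIMM17B (chrX:48893447-48898143) stood at 176 and 184 TPM in siControl and 120 and 118 TPM in siCNOT4. Its siCNOT4 libraries were nearly equal and far below both siControl libraries. The log2 fold change was -0.59 ± 0.15 (SE, n = 2 per group; adjusted p = 0.0492 with limma), a ratio of means of 0.661. The call was lost when either siCNOT4 library was left out, and with a pseudocount of 0.1 (limma, adjusted p = 0.0649). It was kept when either siControl library was left out, where the spread came from siCNOT4 alone, so this is no support. The log2 fold change was -0.63 to -0.56 over the 4 fits that left out a library. TIMM17A, the alternative channel subunit, known as a short-lived protein degraded under stress, stood at 127 and 128 TPM in siControl and 172 and 178 TPM in siCNOT4 (limma, adjusted p = 0.0738). TIMM23, the channel, was at 128 and 151 against 182 and 187 TPM, and TIMM21, a regulatory subunit, at 109 and 102 against 143 and 143. TIMM50, the presequence receptor of the complex, was at 184 and 204 TPM in siControl and 164 and 168 in siCNOT4 (limma, adjusted p = 0.270). Relative to the median of all genes, all 5 lay below 0, from -0.05 for TIMM17A to -1.09 for TIMM17B.

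None of the 6 genes of the import motor passed. Of these, 5 had both siCNOT4 libraries below both siControl libraries and GRPEL2 overlapped, while 10.6% of all tested genes lay below. The median log2 fold change of the 6 was -0.25. PAM16, the J-like regulator of the motor (chr16:4331549-4355607), stood at 75.6 and 112 TPM in siControl and 57.9 and 55.6 TPM in siCNOT4. It had the most negative fold change of the 35 genes, -0.69 ± 0.23 (SE; adjusted p = 0.0813 with limma), with siControl libraries far apart. TIMM44, the scaffold that holds HSPA9 at the channel (chr19:7926718-7943920), stood at 61.8 and 42.8 TPM in siControl and 38.0 and 39.9 TPM in siCNOT4. Its siControl replicate 2 lay close to siCNOT4, and the log2 fold change was -0.39 ± 0.24 (SE; adjusted p = 0.238 with limma). DNAJC19, a J protein of the motor, was at 40.2 and 45.5 against 33.5 and 35.2 TPM, and HSPA9, the mitochondrial HSP70, at 648 and 568 against 559 and 545. GRPEL1, the nucleotide exchange factor of HSPA9, was at 89.2 and 88.7 against 77.9 and 77.5 TPM, and its paralogue GRPEL2 at 57.5 and 40.5 against 57.2 and 55.4.

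Both subunits of the presequence peptidase had siCNOT4 libraries above siControl libraries, an order that 66.4% of all tested genes shared. PMPCB, the catalytic subunit, stood at 64.6 and 47.8 TPM in siControl and at 98.9 TPM in both siCNOT4 libraries (limma, log2 fold change 0.82, adjusted p = 0.0503). PMPCA stood at 134 and 143 TPM in siControl and 154 and 169 TPM in siCNOT4 (limma, adjusted p = 0.289). Neither passed the threshold, and only PMPCB lay above the median of all genes.

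**Figure D2:**
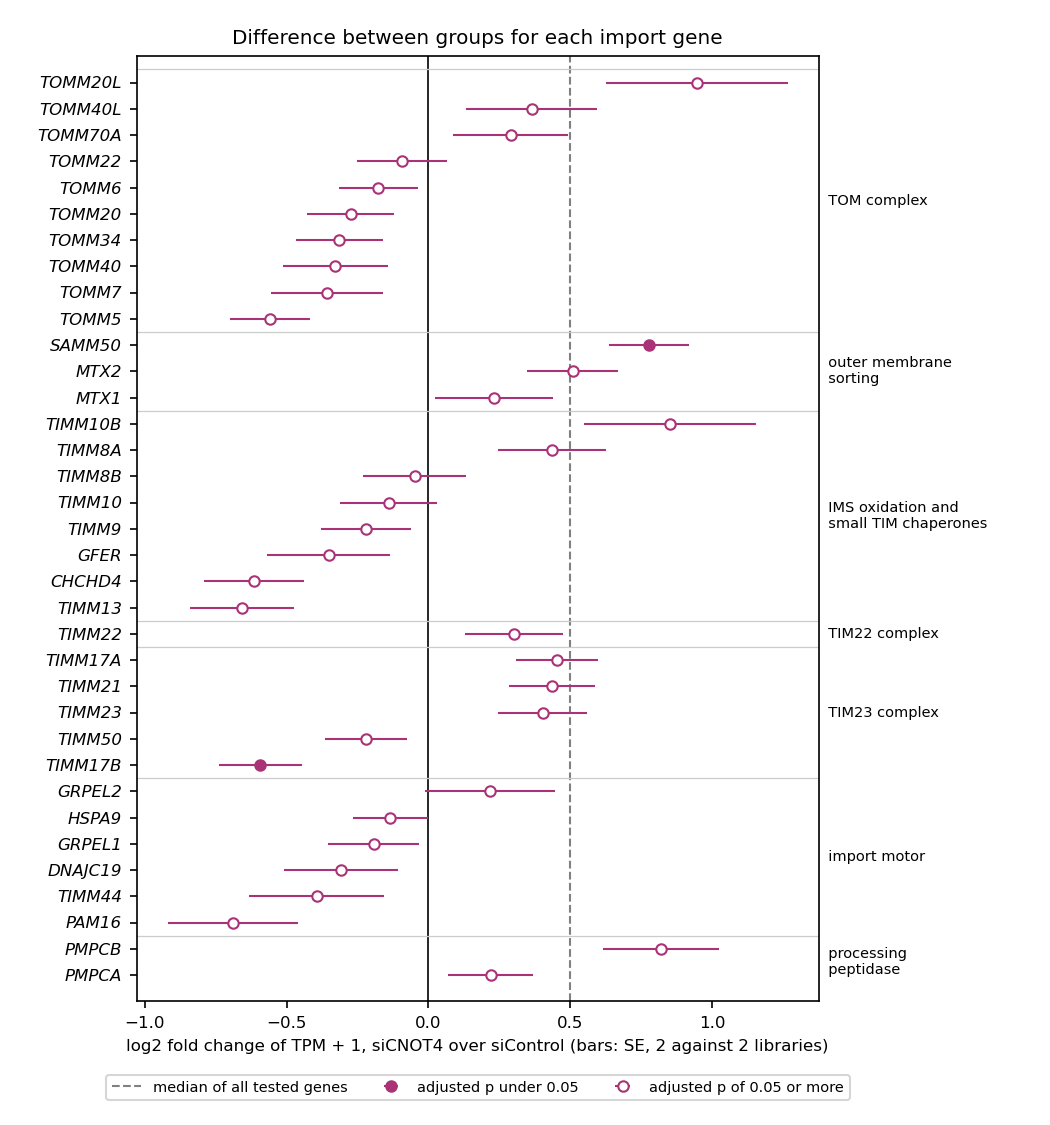
Fitted log2 fold change of TPM + 1 (siCNOT4 over siControl) of each import gene, with its SE as a bar; filled points passed an adjusted p of 0.05, the solid line marks 0 and the dashed line the median of all tested genes at 0.50. SAMM50 (0.78) and TIMM17B (-0.59) are the filled points, and 30 of the 35 genes lie left of the dashed line.

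Ratios of partner genes within a library do not depend on how libraries are scaled to each other. Over 13 pairs, the ratio was higher in both siCNOT4 libraries for 5, lower for 7 and overlapping for 1. The share over other gene pairs was not computed, so these counts cannot be called particular to import partners. Of single tested genes, 66.4% already lay above and 10.6% below in both siCNOT4 libraries. The exact 2-sided permutation test of 2 against 2 libraries cannot go below p = 0.333, which the 12 pairs without overlap reached. TIMM17A to TIMM17B gave 0.722 and 0.695 in siControl, against 1.44 and 1.5 in siCNOT4 (2.07-fold). The higher TPM of the pair was thus that of TIMM17B in siControl and TIMM17A in siCNOT4. The 2 genes differ in GC content (40.6% and 60.2%). With length and GC trends removed, the difference between their log2 fold changes was 0.59 in place of 1.046. TIMM8A to TIMM13 gave 0.563 and 0.400 in siControl, against 1.03 and 1.02 in siCNOT4 (2.13-fold). SAMM50 to TOMM40, the beta-barrel channels of sorting and entry, gave 1.35 and 1.55 in siControl, against 3.24 and 3.02 in siCNOT4 (2.16-fold).

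Other pairs moved less or were less steady within siControl. TIMM23 to TIMM50 gave 0.696 and 0.741 in siControl, against 1.11 and 1.11 in siCNOT4. TIMM8A to TIMM8B was 0.534 and 0.369 against 0.644 and 0.607, and TOMM40 to TOMM40L was 5.88 and 5.16 against 3.48 and 3.26. TIMM9 to TIMM10, whose proteins assemble in equal numbers, stayed near 1 in TPM (1.013 and 0.935 against 0.926 and 0.914). The difference between their log2 fold changes was -0.08, and -0.32 with length and GC trends removed. The ratio of siCNOT4 to siControl was 0.829 for CHCHD4 to GFER, 0.823 for MTX1 to MTX2, 0.762 for PAM16 to DNAJC19, 0.738 for GRPEL1 to GRPEL2 and 0.644 for PMPCA to PMPCB. TOMM20 to TOMM22 overlapped, at 2.81 and 1.82 in siControl and 2.12 and 1.87 in siCNOT4.

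**Figure D3:**
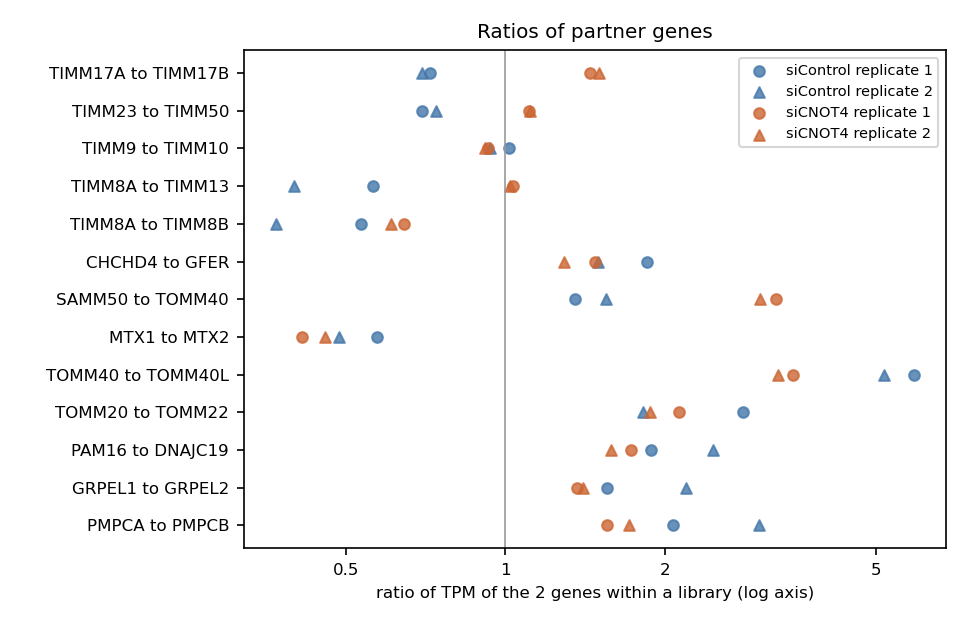
Ratio of the TPM of 2 partner genes within each library, on a log axis, with the line at equal TPM; blue marks siControl and orange siCNOT4. TIMM17A to TIMM17B, TIMM8A to TIMM13 and TIMM23 to TIMM50 lie below 1 in both siControl libraries and above 1 in both siCNOT4 libraries.

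Gene length moved with these values. The median length of the gene models behind the TPM was 1659 bases for the import genes and 3014 over the 13764 tested genes with a length and GC content. Across those genes, which are not independent replicates, length correlated with the difference between groups (Spearman's rho 0.356; 0.213 over the 35 import genes). It correlated more strongly with the difference between the 2 siControl libraries (rho 0.594; 0.602 over the import genes) than between the 2 siCNOT4 libraries (rho 0.118 and -0.0787). GC content correlated with the difference between groups at rho -0.353 over all genes and -0.38 over the import genes.

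**Figure D4:**
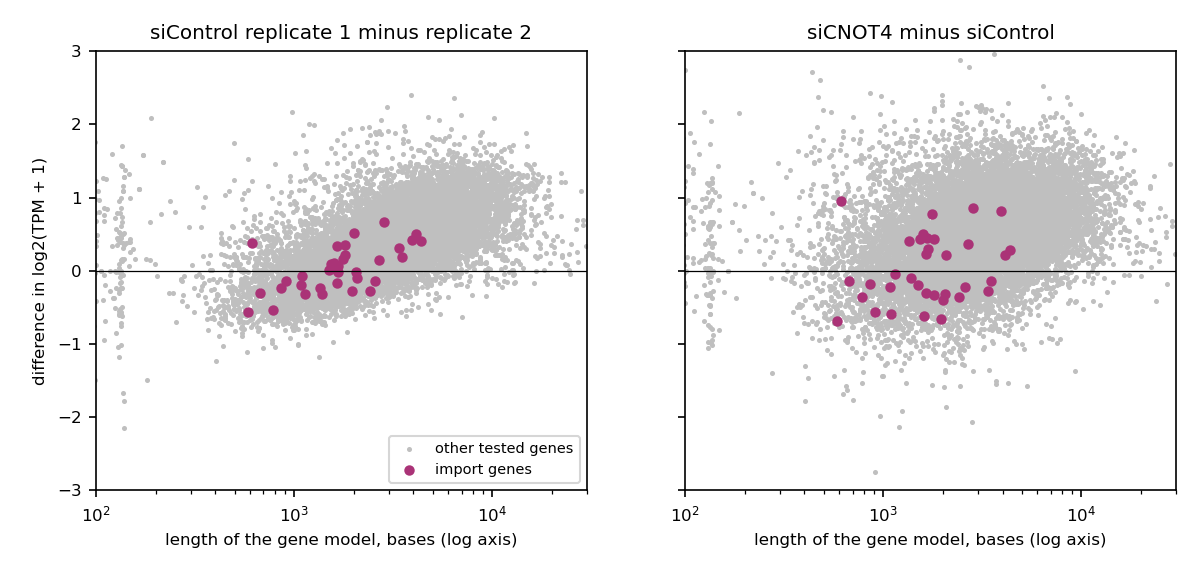
Difference in log2(TPM + 1) against gene model length (log axis) between the 2 siControl libraries and between the groups, with import genes in purple and other tested genes in grey; 283 genes lie outside the axes. The upward slope is steeper between the siControl libraries (rho 0.594) than between the groups (rho 0.356).

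With fitted trends on length and GC content removed from every library, more genes were called lower, 1908 of all tested genes in place of 184. This step also gave every library the same mean, and the all-gene median was then -0.0045 in place of 0.50. Of the import genes, 14 of the 35 (40%) were called lower, against 13.9% of the 13764 genes, and 1 was called higher, against 11.9%. The median of the set against all genes was then -0.42, nearer 0 than the -0.64 on the TPM scale. The gene called higher was again SAMM50 (log2 fold change 0.45; limma, adjusted p = 0.0274). Those called lower included TOMM20 (-0.94), CHCHD4 (-0.93), DNAJC19 (-0.84), TIMM13 (-0.79), TOMM5 (-0.78), HSPA9 (-0.75), PAM16 (-0.73), TOMM34 (-0.66), TIMM17B (-0.64) and TIMM44 (-0.62). The other 4 were TIMM9 (-0.60), GRPEL2 (-0.57), TOMM40 (-0.54) and GRPEL1 (-0.52), so that all 6 motor genes, GRPEL2 with a reversed sign, were called lower on this scale. The trends removed include any real difference that goes with length or GC content. Quantile normalization, which has no length or GC term, also called more genes lower (1169). What the trends and the equal means each contributed to calls and signs was not tested. With the trends removed, the difference between the fold changes of partners was 0.59 for TIMM17A to TIMM17B (1.046 on the TPM scale). It was 0.77 for TIMM8A to TIMM13 (1.095) and 1.00 for SAMM50 to TOMM40 (1.11). It was larger in size for TIMM9 to TIMM10 (-0.32 against -0.08), TOMM20 to TOMM22 (-0.56 against -0.18), TIMM23 to TIMM50 (0.72 against 0.62) and CHCHD4 to GFER (-0.34 against -0.26). It was smaller in size for TIMM8A to TIMM8B (0.31 against 0.49) and TOMM40 to TOMM40L (-0.50 against -0.69). It was near 0 or of the other sign for MTX1 to MTX2 (0.08 against -0.28), PAM16 to DNAJC19 (0.11 against -0.38), GRPEL1 to GRPEL2 (0.05 against -0.41) and PMPCA to PMPCB (-0.08 against -0.60).

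Some reads may be shared with neighbours or copies. Exons of 21 import genes overlap another gene in GENCODE 29 (GRCh38), 6 of them over at least 20% of their length. These shares are of all GENCODE exons of a gene, not of the gene model behind the TPM. PAM16 shares 522 of 2383 bases of exon (21.9%) with the read-through gene CORO7-PAM16 on the same strand. The model behind its TPM had 584 bases, so the share of what was counted may be larger and is not known. CORO7-PAM16 stood at 24.7 and 26.5 TPM in siControl and 26.7 and 29 TPM in siCNOT4. The exons of TOMM6 lie wholly within those of AL365205.1 on the same strand, so its level is uncertain. TIMM13 shares 257 bases with LMNB2 on the same strand, and TOMM20L shares 173 bases with TIMM9 on the opposite strand. TIMM23 has a near-identical copy, TIMM23B, not analysed here, so its values are uncertain. Whether the counting used strand is not given in the sources used here.

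Of 27 tested genes of insertion, sorting, processing and cristae organisation, 2 rose and 1 fell, where 11.3% of all tested genes rose and 1.3% fell. Their median log2 fold change was 0.23, below the all-gene median of 0.50. APOOL, a cristae organising protein, rose from 14.4 and 7.55 to 33.9 and 31.7 TPM (limma, adjusted p = 0.0436), and PITRM1, the protease that degrades cleaved presequences, from 72.0 and 52.7 to 129 and 133 TPM (adjusted p = 0.0336). CHCHD6, a cristae protein of the CHCHD family to which CHCHD4 also belongs, fell from 60.2 and 72.4 to 34.7 and 32.6 TPM (limma, adjusted p = 0.0413). Of 17 mitochondrial chaperone and protease genes, listed with their regulator ATF5, 1 fell and none rose (limma), where 1.3% of all tested genes fell and 11.3% rose. Of the 17, 4 had an unadjusted p under 0.05, against 5974 of 14208 genes, and their median was -0.19 against 0.50. Under TMM scaling 3 of the 17 were called lower, against 5.59% of all tested genes. ATF5, a transcription factor of the mitochondrial stress response, fell from 77.7 and 88.7 to 43.9 and 48.5 TPM (limma, adjusted p = 0.0437). YME1L1, the protease known to degrade TIMM17A protein, stood at 106 and 62.6 TPM in siControl and 161 and 154 TPM in siCNOT4 and did not pass (limma, adjusted p = 0.0601).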

How the data were processed

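Each of the 4 libraries was deposited as a table of TPM for 20457 symbols, per the file headers, with the replicates not pooled. The processing notes of the submitters name FastQC 0.11.2, STAR 2.5.3a, featureCounts and build hg19. The annotation, the lengths and the strand setting are not given in the sources used here. Because the authors counted whole reads, each TPM is a whole number of reads times a library constant divided by a gene length. Reads and lengths were recovered for all 18557 features above 0 in at least 2 libraries, up to a common whole factor per gene. The constants matched those computed from the recovered reads to within 0.01%. Without molecular identifiers, reads are not independent molecules, so read numbers cover counting error only.

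The 14208 features whose mean TPM reached 1 were compared on log2(TPM + 1) with limma 3.58.1 (R 4.3.3; lmFit, eBayes with trend), 2 against 2 libraries, without covariates. P-values were adjusted by Benjamini-Hochberg over all of them, with 0.05 as the threshold. A fold change on this scale understates the change of low genes. Groups and replicate numbers came from the sample titles. Full statistics were given for genes with an adjusted p under 0.05 and for those furthest from the all-gene median, up to 8 in all. Alternatives changed the pseudocount, filter, scaling, variance trend or libraries used, or removed length and GC trends. Removing the trends also set every library to the same mean on the log scale. Voom on recovered reads, with and without TMM sizes, changed the test and the scale together. Scripts were checked on simulated data. The members, lists and tests were chosen with earlier results of these data known.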

Additional observations from a re-analysis of the deposited data

How the results depend on the processing

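The position of the import genes below the median gene kept its sign in every alternative run, from -0.84 (without siControl replicate 1) to -0.22 (quantile normalization). Calls did not. The counts below give all genes higher, all genes lower, import genes higher and import genes lower, against 1608, 184, 1 and 1. They were 478, 80, 1 and 0 with a pseudocount of 0.1, 847, 61, 1 and 0 with no filter on low values, and 109, 38, 0 and 0 with a mean TPM of at least 5. They were 703, 53, 0 and 0 without the variance trend, 611, 794, 0 and 6 with TMM scaling, and 1010, 1169, 1 and 7 with quantile normalization. With length and GC trends removed they were 1638, 1908, 1 and 14. Leaving out 1 library gave 413 to 10071 genes higher, 37 to 1467 lower, 0 to 14 import genes higher and 0 to 14 lower. The lone library is then assumed to vary like the other group. The largest of these counts came without siControl replicate 1 (10071, 1240, 14 and 14) or siControl replicate 2 (6704, 1467, 10 and 10). A replicate block gave 3342, 313, 3 (TOMM20L, SAMM50 and PMPCB) and 3 (PAM16, TOMM5 and TIMM17B). The deviations of same-numbered libraries correlated at 0.171 across genes, and with 2 pairs the numbers are not known to pair the libraries. Voom on recovered reads, chosen after seeing the data, gave 1667, 437, 0 and 3, and with TMM sizes 764, 1019, 0 and 8. The summed TPM ratio was 0.621 under TMM scaling, where the siControl sums were 5549.8 and 7748.3.

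SAMM50 was not called with a mean TPM of at least 5 (limma, adjusted p = 0.0513), without the trend (0.0639), with voom (0.0762) or with TMM scaling (0.442). TIMM17B was not called with no filter (0.0620), a mean TPM of at least 5 (0.0653) or no trend (0.0884). The causes were not tested. Genes whose fold change turned sign under TMM scaling were MTX1 (-0.34), TOMM40L (-0.19), TIMM17A (-0.12), TIMM23 (-0.17), TIMM22 (-0.27), TIMM21 (-0.14), MTX2 (-0.066), TOMM70A (-0.28), GRPEL2 (-0.35), PMPCA (-0.36) and TIMM8A (-0.13). With voom and TMM sizes these were MTX1 (-0.36), TOMM40L (-0.22), TIMM17A (-0.14), TIMM23 (-0.19), TIMM22 (-0.29), TIMM21 (-0.15), MTX2 (-0.082), TOMM70A (-0.30), GRPEL2 (-0.37), PMPCA (-0.37) and TIMM8A (-0.15). Quantile normalization turned MTX1 (-0.19), TOMM40L (-0.13), TIMM22 (-0.029), TOMM70A (-0.041) and GRPEL2 (-0.16). Removing the trends turned TOMM40L (-0.050), TIMM17A (-0.052), TIMM21 (-0.015), TOMM70A (-0.42), GRPEL2 (-0.57), PMPCA (-0.017) and TIMM8A (-0.025). Voom turned MTX1 (-0.050), GRPEL2 (-0.065) and PMPCA (-0.063). Leaving out siControl replicate 2 turned 4 genes, given with their range over the libraries left out: TIMM10 (-0.29 to 0.014), TIMM8B (-0.21 to 0.11), TOMM22 (-0.25 to 0.063) and GRPEL2 (-0.031 to 0.47).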
